A study of Mus musculus with 2 samples.

Results

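The report covers the promoters of the mouse gastrocnemius, a calf muscle of the hindlimb, at which chromatin was open to DNase I in the library labelled replicate 1 and gave no peak in the library labelled replicate 2. The members were chosen from these same measurements. A member peak was a peak of the shorter replicate 1 list, 1 or more in height, that lay no farther than 1 kb from the transcription start site (TSS) of a protein-coding gene and overlapped no interval of the replicate 2 list of intervals with a false discovery rate (FDR). Its gene had no replicate 2 peak within 1 kb of any TSS in either replicate 2 peak list. The rule found 1809 member peaks at 1147 genes. That was 5.23% of the 21951 protein-coding genes and 8.63% of the 13297 genes with a replicate 1 promoter peak of that height. Height is the authors' depth-normalized signal at a peak.

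Both libraries came from female B6CASTF1/J mice, the first-generation hybrid of the C57BL/6J and CAST/EiJ strains, aged 10 days and with no treatment named. The labels record 3 females for each library and place both in 1 group as biological replicates, with the same donor record. There was no other tissue, age or condition. With 1 library on each side, the difference between the libraries has no replicate check, no test was made, and a difference between animals cannot be told apart from one of dissection or library preparation.

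DNase I cuts DNA where nucleosomes have been displaced, and promoters in use are among the sites it cuts most. Mammalian promoters fall broadly into CpG-island promoters, which are open in most cell types, and CpG-poor promoters, which are more often tied to particular tissues. Neurons, glia and muscle fibres each keep their own set of the latter, and many genes for neural transcription factors have CpG-island promoters that Polycomb complexes hold silent in other tissues. A footprint is a short stretch inside an open region that is cut less than its flanks, as happens under a bound protein.

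The sequences shown are the stretches outside annotated untranslated regions, of 50 or more bases, of the tallest member peaks and of the tallest members in neural and muscle gene lists. They are GRCm38 (mm10) reference sequence, not read from the hybrid animals, written 5′ to 3′ on the gene's strand, with capitals for bases inside replicate 1 footprints. The stretches lie at chr2:79456752-79456860, minus strand for Neurod1, at chr11:98329649-98329780, minus strand for Neurod2 and at chr9:22052024-22052180, minus strand for Elavl3. Those of the Zic genes lie at chr9:91365821-91366020, minus strand for Zic1 and at chr9:91381441-91381740, plus strand for Zic4. The others lie at chr10:80141361-80141456, plus strand for Atp5d, at chr6:125071981-125072180, plus strand for Lpar5 and at chr11:67276701-67276860, plus strand for Myh8, which was added after its value was seen, as the tallest member of the sarcomere list.
Neurod1: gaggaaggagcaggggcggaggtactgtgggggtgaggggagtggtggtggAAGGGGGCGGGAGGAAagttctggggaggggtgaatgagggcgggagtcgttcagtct
Neurod2: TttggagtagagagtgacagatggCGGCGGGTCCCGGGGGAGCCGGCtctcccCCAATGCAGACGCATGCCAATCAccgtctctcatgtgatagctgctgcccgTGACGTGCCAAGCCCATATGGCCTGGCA
Elavl3: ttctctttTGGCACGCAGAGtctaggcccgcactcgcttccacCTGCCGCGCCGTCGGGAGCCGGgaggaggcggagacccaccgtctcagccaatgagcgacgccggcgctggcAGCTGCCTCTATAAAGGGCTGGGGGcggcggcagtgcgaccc
Zic1: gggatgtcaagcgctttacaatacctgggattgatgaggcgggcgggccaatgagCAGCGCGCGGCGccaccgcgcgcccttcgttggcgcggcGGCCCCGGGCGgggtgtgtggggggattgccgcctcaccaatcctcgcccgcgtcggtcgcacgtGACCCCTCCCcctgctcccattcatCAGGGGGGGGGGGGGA
Zic4: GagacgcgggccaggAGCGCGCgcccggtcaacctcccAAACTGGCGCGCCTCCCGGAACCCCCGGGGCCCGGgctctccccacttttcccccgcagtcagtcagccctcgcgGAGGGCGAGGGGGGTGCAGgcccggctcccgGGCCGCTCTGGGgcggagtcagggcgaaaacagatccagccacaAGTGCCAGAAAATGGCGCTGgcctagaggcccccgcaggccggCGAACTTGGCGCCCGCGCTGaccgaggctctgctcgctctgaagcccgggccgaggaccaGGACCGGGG
Atp5d: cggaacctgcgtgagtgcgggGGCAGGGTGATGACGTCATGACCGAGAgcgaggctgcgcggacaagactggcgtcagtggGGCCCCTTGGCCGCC
Lpar5: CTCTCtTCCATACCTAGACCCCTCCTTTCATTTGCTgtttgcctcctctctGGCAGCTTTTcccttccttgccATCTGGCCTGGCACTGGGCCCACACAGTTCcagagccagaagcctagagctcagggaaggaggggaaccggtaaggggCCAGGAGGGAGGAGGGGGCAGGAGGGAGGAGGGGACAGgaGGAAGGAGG
Myh8: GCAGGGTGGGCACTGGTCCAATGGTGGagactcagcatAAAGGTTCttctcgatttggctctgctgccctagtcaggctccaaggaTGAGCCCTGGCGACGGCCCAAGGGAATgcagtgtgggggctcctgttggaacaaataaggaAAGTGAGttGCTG

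Neurod1 and Neurod2 encode basic helix-loop-helix factors of neuronal differentiation. The Neurod2 stretch holds the CAGATG E-box and the CCAAT box, and the Neurod1 stretch holds the GC box GGGCGG. The Elavl3 stretch, upstream of a gene for a neuronal RNA-binding protein, holds the TATA box TATAAA inside a footprint run, with a CCAAT box, a GC box and the CAGCTG E-box. The Atp5d stretch, upstream of a gene for a subunit of mitochondrial ATP synthase, holds the cyclic-AMP response element TGACGTCA inside a footprint. The Myh8 stretch, upstream of the gene for perinatal myosin heavy chain, holds a CCAAT box and the TEAD motif GGAATG. These matches, on either strand, are descriptions of the letters only.

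The libraries differed before any gene was singled out. The shorter peak list held 114758 peaks in replicate 1 and 26804 in replicate 2. Of 12 skeletal muscle markers, 6 had a promoter peak in replicate 1 and 4 in replicate 2 in the shorter lists, with summed heights of 37.3 and 11.4. The longer replicate 2 list added peaks at Mylpf, Myod1, Myog and Ryr1, and the longer replicate 1 list at Acta1 and Pygm. Tnnt3, Myh4 and Atp2a1, for fast troponin T, a fast myosin heavy chain and the calcium pump of the sarcoplasmic reticulum, had no promoter peak in either library. Of 12 neuron markers, 12 had one in replicate 1, at heights of 1.67 to 14.5 (sum 86.8), and 7 in replicate 2, at 0.654 to 2.05 (sum 9.17), again in the shorter lists. The longer replicate 2 list added peaks at Stmn2 and Syt1. Distal peaks, those of the shorter lists farther than 1 kb from every TSS and within 50 kb of one of the gene's, numbered 171 in replicate 1 and 16 in replicate 2 at the neuron markers, and 85 and 32 at the muscle markers. The library labelled replicate 1 thus had the taller peak at each neuron marker except Camk2a, beside its larger peak list. Taller replicate 1 peaks were not particular to neuron markers. All 15 genes of a housekeeping list had them too, such as Actb at 23.9 against 3.78 and Gusb at 1.93 against 1.70. In bulk tissue, more cells of a type and wider opening in each cell cannot be told apart. Whether neural tissue, depth or both set the member promoters was not tested. The reverse pattern was rare: of 10514 genes with a replicate 2 promoter peak 1 or more in height, 26 (0.247%) had no replicate 1 promoter peak in either list, against 8.98% for the same count from replicate 1, which leaves out the interval condition. Among the 26 were Hoxa9, Hoxa11, Hoxc9, Hoxc11 and Hoxd10, all of a list of limb position genes. In that list 10 of 15 genes had a replicate 2 promoter peak and none in the shorter replicate 1 list.

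Member promoters were lower than those shared by the libraries. The tallest member peak of a gene ranged from 1.00 to 16.7, with a median of 2.09 (quartiles 1.43 and 3.56). The 12103 genes with a peak of height 1 or more in replicate 1 and a replicate 2 promoter peak, called shared here, had a median of 7.88 (quartiles 4.17 and 12.9). The remaining 47 of the 13297 genes were kept out only by replicate 2 intervals. A height of 2 or more was reached by 598 members, of 5 or more by 153 and of 10 or more by 33. Just inside the minimum lay Slc4a9, Thsd7b and Vax2 at 1.00, and just outside it Lrrtm4, Cdhr5 and Ddn at 0.996.

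The share of genes that were members fell with replicate 1 height, which the rule used. For genes whose tallest promoter peak was 1 to 1.5 high, 326 of 869 were members (37.5%, Wilson 95% interval 34.4 to 40.8). The share was 20.5% at 2 to 3, 3.26% at 5 to 10, and 34 of 4657 (0.730%, 0.523 to 1.02) at 10 or more. Shared genes in the same classes had median replicate 2 heights of 1.07, 1.27, 1.90 and 2.57. A promoter 10 or more high in replicate 1 without a replicate 2 peak was therefore uncommon, and 5% of shared genes in that class had replicate 2 heights under 1.42. Replicate 2 peaks went as low as 0.118 in its shorter list. Among the 26804 tallest replicate 1 peaks, as many as replicate 2 had, 407 genes were members.

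**Figure D1:**
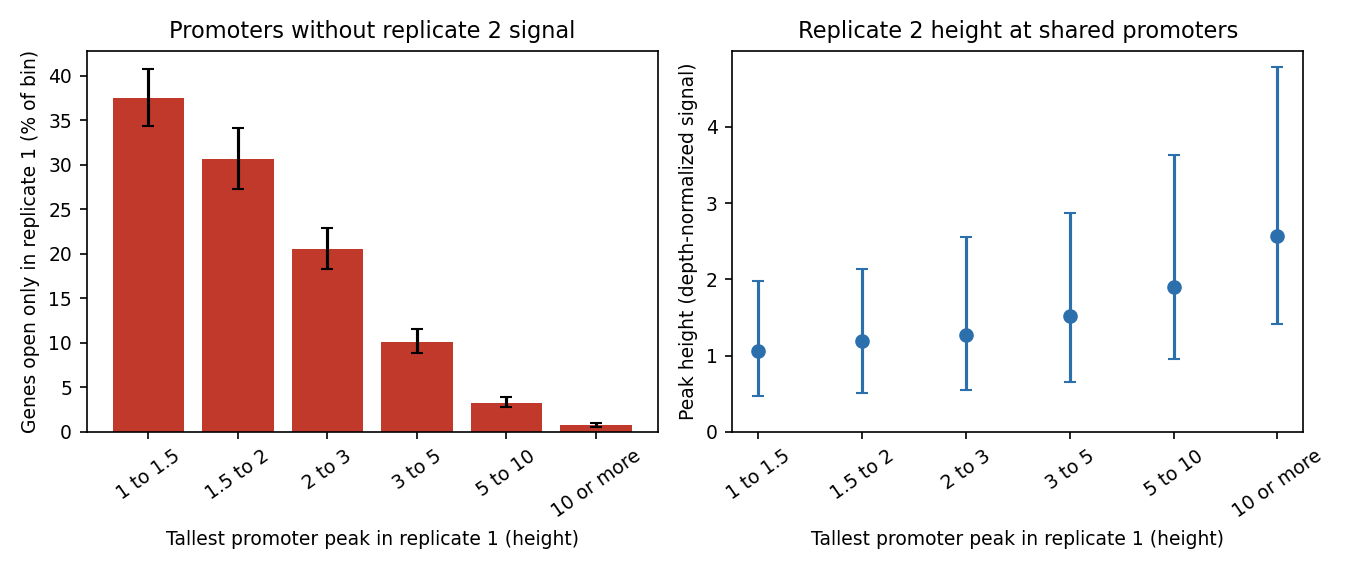
Left, the share of genes with a replicate 1 promoter peak that were open only in replicate 1, by the height of their tallest peak, with Wilson 95% intervals; right, the median replicate 2 height of shared promoters in the same classes, with bars from the 5th to the 95th percentile. The share fell from 37.5% to 0.730% while the replicate 2 median rose from 1.07 to 2.57.

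The rule also fixed much of what replicate 2 showed at the members. No replicate 2 interval lay within 1 kb of any TSS at 1051 of the 1147 genes, and no member peak held a replicate 2 footprint. The nearest peak of the longer replicate 2 list lay a median of 16.7 kb from the tallest member peak (quartiles 7.77 and 41.7 kb). It lay within 50 kb for 916 members. Closest of all was a peak 0.041 kb away. At 27 genes a taller replicate 1 promoter peak overlapped a replicate 2 interval, so a lower peak made the gene a member; Syp, for the vesicle protein synaptophysin, was one, with a member peak of 1.29 beside a peak of 8.95.

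Of the 15 tallest members, 5 were in the neural gene lists described further on: Neurod1, Neurod2, Elavl3, Zic1 and Zic4. Neurod1 reached 16.7 in replicate 1, in a peak that also lay within 1 kb of the TSS of Cerkl, and Neurod2 reached 16.1. Elavl3 reached 14.5, Pou3f3, a POU factor of neural progenitors, 14.3, and Synpr, for the synaptic vesicle protein synaptoporin, 14.0. In replicate 2 none of these had a promoter peak, and none had an interval within 1 kb. Of them Pou3f3 and Synpr had no replicate 2 distal peak either, with 22 and 4 distal peaks in replicate 1.

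The Zic genes encode zinc-finger factors of the dorsal neural tube and cerebellum and lie in head-to-head pairs, Zic1 with Zic4 and Zic2 with Zic5. All 4 were members. Their tallest member peaks were 12.6 at Zic1, 13.6 at Zic4, 11.3 at Zic2 and 14.7 at Zic5. Zic1 had 6 member peaks and Zic4 had 9, Zic2 had 4 and Zic5 had 3, so the openness was spread over several sites at each pair. Each of the 4 had 21 or 24 distal peaks in replicate 1 and 0 in replicate 2, in the shorter lists. The longer replicate 2 list had a peak 1161 bp from that of Zic2.

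The other members among the 15 tallest were in none of the neural lists. Atp5d reached 15.9, in a peak it shared with Cbarp, whose product regulates calcium channels. Lpar5, for a lysophosphatidic acid receptor, had a peak of 16.1 that lay 804 bp inside the gene. Slc16a13, of the monocarboxylate transporter family, reached 12.9, and Slain1, for a microtubule-associated protein, reached 12.6. Ccdc155, whose product links meiotic chromosomes to the nuclear envelope, reached 13.0. These genes had 4, 2, 0 and 2 distal peaks in replicate 2 at Lpar5, Slc16a13, Slain1 and Ccdc155, against 9, 8, 4 and 7 in replicate 1.

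Further members with a peak of 10 or more were named after their values were seen. Barhl2, a homeobox factor of retina and spinal cord, reached 10.9 and Uncx 10.7. Nrn1 reached 11.4, Apba2 10.5 and Cadm4, an adhesion molecule of axons and glia, 11.0. Disp3, of the patched and dispatched family, reached 12.6, Amer2, a Wnt pathway regulator, 12.1, and Fbxl16, an F-box protein, 11.0. Lmtk3, a membrane kinase, and Sult2b1, a sterol sulfotransferase, shared a peak of 12.4. Ajm1, with a peak of 10.8, had replicate 2 intervals within 1 kb of its TSSs, unlike Barhl2, Uncx, Nrn1, Apba2 and Disp3.

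Some members below that height, picked for their known roles from among others as tall, are given as examples. Celf3, a neuronal RNA-binding protein, reached 9.95, Nfasc 9.39 and Rgs8, a G-protein regulator of Purkinje cells, 9.41. Vsx1, a factor of retinal bipolar cells, reached 9.43. Scg5, a secretory granule protein, 8.87, Fabp7, the fatty acid binding protein of radial glia, 8.41, and Ncan, for the brain proteoglycan neurocan, 7.79. Of these, Celf3, Vsx1 and Fabp7 had 0 distal peaks in replicate 2, and Nfasc had 3.

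Gene lists put numbers on this mixture. The 12 neural lists held 188 genes, of which 47 (25%) were members, against 5.23% of all protein-coding genes. Of the 126 neural list genes with a replicate 1 promoter peak of height 1 or more, 37.3% were members, against 8.63% of all such genes. The 6 muscle lists held 9 members among 108 genes (8.33%), or 15.8% of their 57 genes with such a replicate 1 peak. The lists of other tissues and cell types, with housekeeping, clock, immediate-early and limb position genes, held 15 among 232 (6.47%), or 17.0% of 88. Each class thus lay above 8.63%, the neural one farthest. The lists were chosen with earlier results of these data known, so the counts describe the lists and are not independent support. All told 4.10% of members (Wilson 95% interval 3.10 to 5.41) were in a neural list, and most members were therefore in none of the lists.

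**Figure D2:**
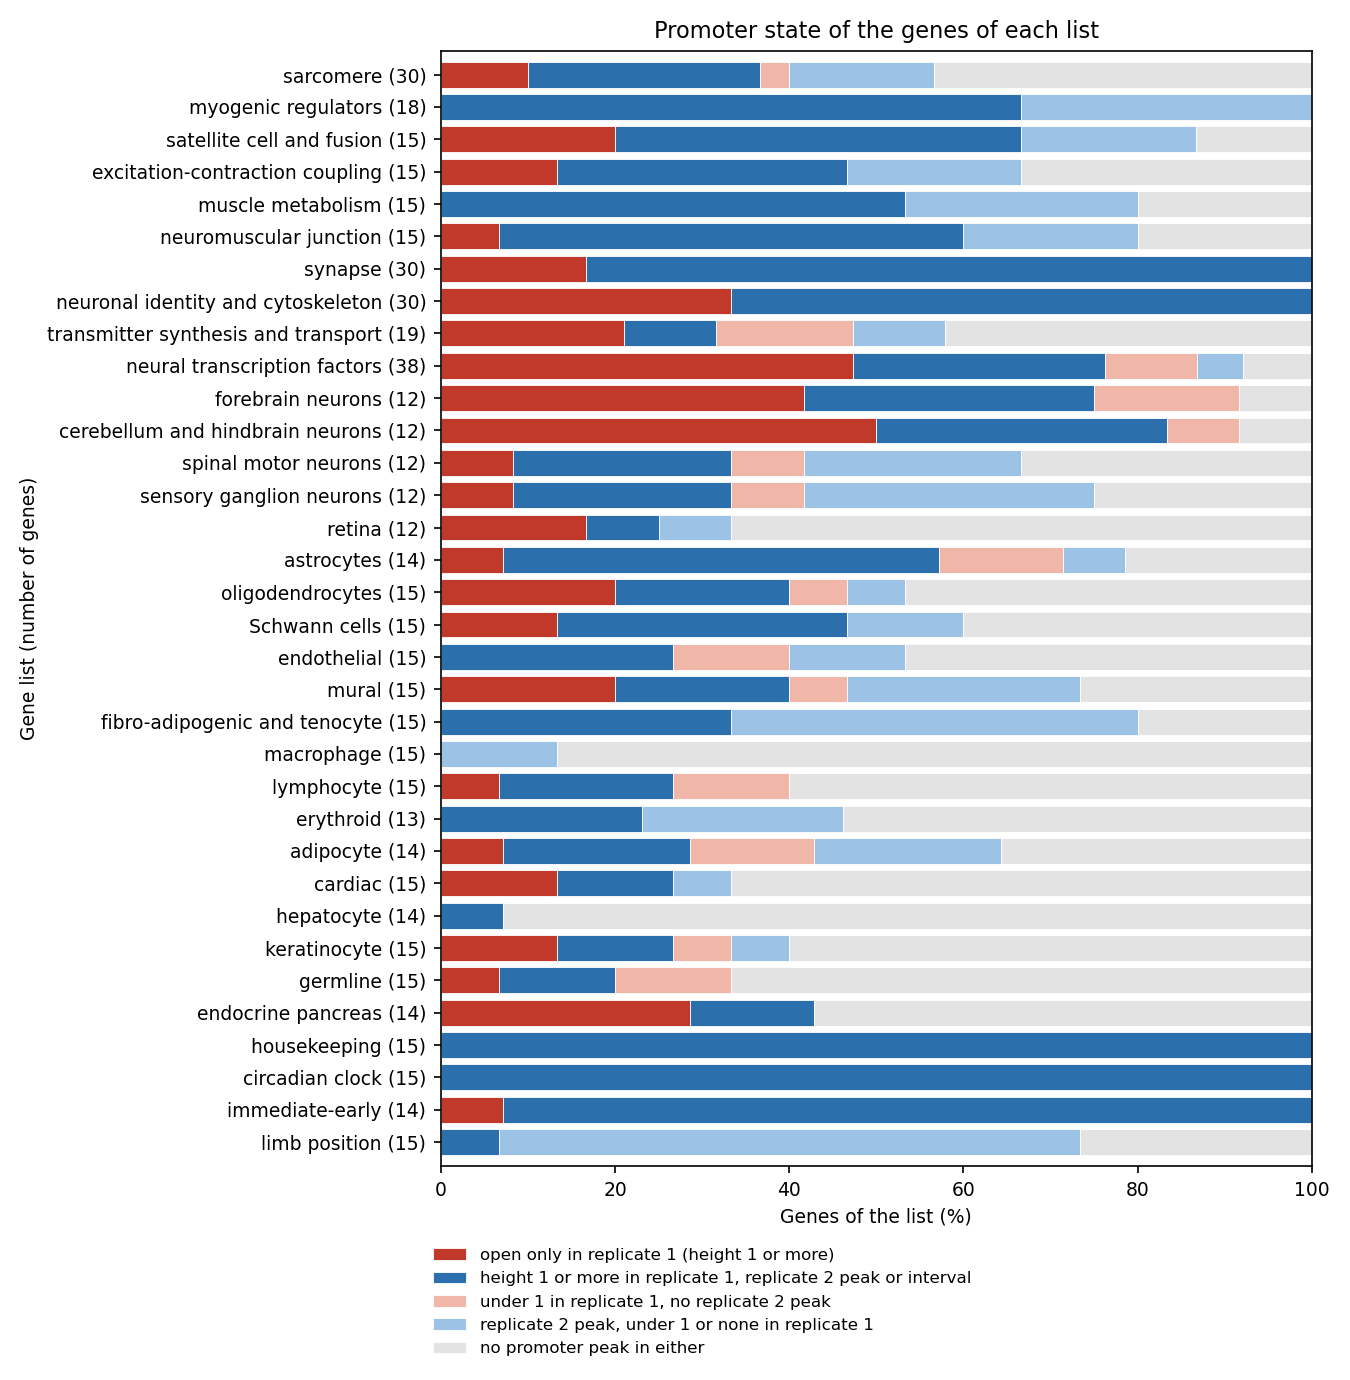
Each bar splits the genes of a list, as percentages, by the state of their promoters in the shorter replicate 1 list and either replicate 2 list, with the number of genes in parentheses. The part open only in replicate 1 is longest for cerebellum and hindbrain neurons (6 of 12 genes) and neural transcription factors (18 of 38), and absent for housekeeping genes (0 of 15) and myogenic regulators (0 of 18).

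Neural transcription factors had the largest share of members among the lists with over 12 genes, 18 of 38. Their median height was 3.44. Besides Neurod1, Neurod2, Zic1 and Zic4, Pax6, a paired-box factor of eye and brain, reached 9.19 and Pou3f2, a POU factor of the developing cortex, 8.08. Lhx2, a LIM-homeobox factor, reached 4.06, Neurod6 3.97 and Myt1l, a zinc-finger factor of postmitotic neurons, 3.82. Lower members were Eomes at 3.06, Neurog1 at 2.55, Atoh1 at 2.21, Pou4f1 at 1.95, Sox1 at 1.83, Dlx2 at 1.66, Neurod4 at 1.62, Dlx1 at 1.41 and Lhx5 at 1.21. A replicate 2 promoter peak was found at 13 of the 38 genes.

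The regional lists differed in height. Members of the cerebellum and hindbrain list had a median height of 10.2 over 6 of 12 genes, and members of the forebrain list 1.77 over 5 of 12. Among the cerebellar genes, Zic1, Zic2, Zic4, Pax6 and Atoh1, the last a factor of granule cell progenitors, were members, as was Calb1 at 1.28, for the Purkinje cell protein calbindin. En2 and Cbln1, an engrailed factor of the midbrain and hindbrain boundary and a secreted granule cell protein, were not members: they had replicate 1 heights of 15.2 and 18.4 and replicate 2 peaks of 0.825 and 0.783 in the longer list. En1 and Barhl1 were alike, at 5.98 and 5.84 in replicate 1 and 0.954 and 0.858 in replicate 2. The heights in replicate 2 at these 4 were thus below 1. The list also held Gabra6, below the minimum at 0.841 in replicate 1, and Pcp2, which had no promoter peak in any peak list.

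Among the forebrain genes, Emx1 and Fezf2, cortical factors, were below the minimum at 0.746 and 0.459. Neurod6 and Lhx2 were the tallest members of the list, at 3.97 and 4.06. The lists hold 12 genes each and overlap the list of neural transcription factors, and the difference between them was not tested.

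**Figure D3:**
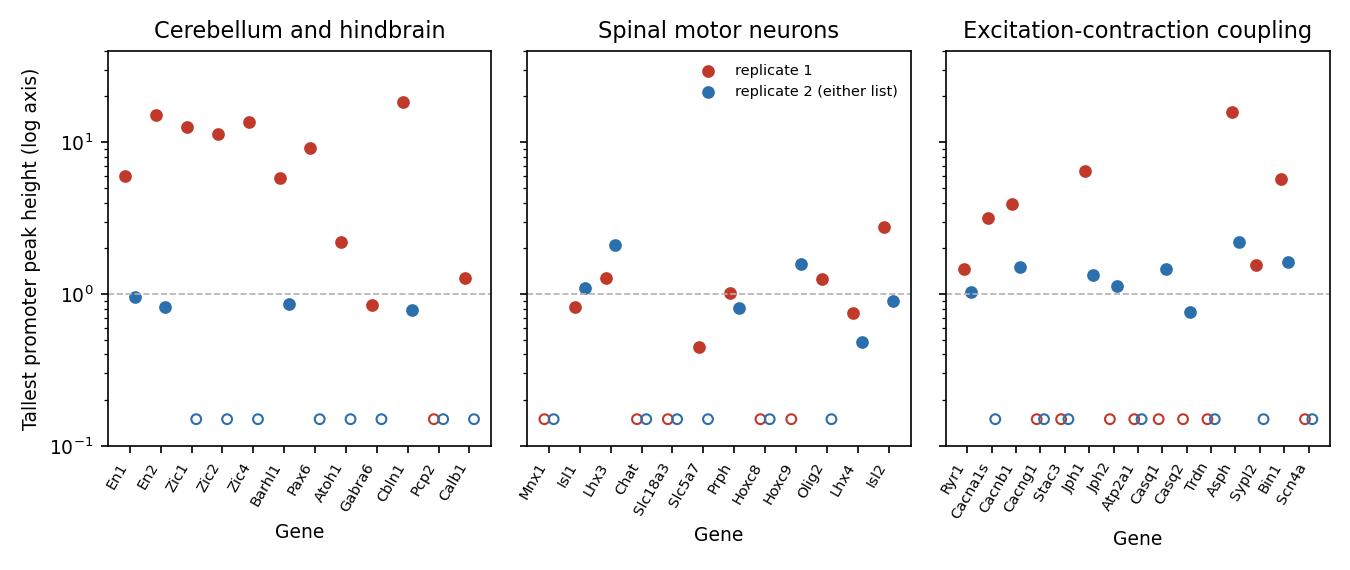
Tallest promoter peak (height) of each gene of 3 lists (cerebellum and hindbrain neurons, spinal motor neurons, excitation-contraction coupling) in the shorter list of replicate 1 and in either list of replicate 2, on a log axis; open circles at the bottom mark no peak and the dashed line the height minimum of 1. Replicate 1 heights at cerebellar genes reach 18.4 with replicate 2 values under 1 or no peak, and several motor neuron and muscle genes have peaks in both or in replicate 2 only.

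In the spinal motor neuron list 1 of 12 genes was a member, Olig2 at 1.25, a factor of motor neuron and oligodendrocyte progenitors. In the sensory ganglion list 1 of 12 was a member, Pou4f1. Each is 8.33% of the list, near the 5.23% of all genes, and 1 of 4 genes with a replicate 1 peak of height 1 or more. A replicate 2 promoter peak stood at 6 of the motor neuron genes and 7 of the sensory genes. Chat and Slc18a3, which share a locus and serve acetylcholine synthesis and loading, had a peak of 0.507 in the longer replicate 1 list and no promoter peak in the other lists.

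Genes for neuronal identity and the neuronal cytoskeleton were all 30 open in replicate 1 at a height of 1 or more. Of them 10 were members with a median of 4.26, or 33.3% against 8.63% of all genes with such a peak. Elavl3 and Tubb3, for neuronal beta-tubulin, were the tallest, at 14.5 and 12.6. Kif1a and Kif5a, axonal transport motors, reached 7.06 and 4.24. Nefl and Nefh, neurofilament subunits, reached 5.89 and 1.72. Stmn3, of the stathmin family, reached 4.28, L1cam, an axonal adhesion molecule, 1.93, and Dcx, for doublecortin, 1.38.

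The synapse list was also open throughout in replicate 1, 30 of 30, and 5 of its genes were members. That is 16.7%, against 8.63% of all genes with a replicate 1 promoter peak of height 1 or more. Sv2a, for a vesicle glycoprotein, reached 4.52, Nlgn3, a neuroligin, 1.82, Sv2b 1.44 and Syp 1.29. The other 25 had a replicate 2 promoter peak. Most of the synaptic genes thus gave peaks in both libraries, while their share of members lay above that of all such genes.

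In the list of transmitter synthesis and transport, 6 of 19 genes had a replicate 1 promoter peak of height 1 or more and 5 others a lower one. Of the 6, 4 were members. Slc17a7, a vesicular glutamate transporter, reached 2.72. Gad1, which makes GABA, reached 1.81, and Slc6a5, a glycine transporter, was the lowest of the 4. Glutamatergic, GABAergic and glycinergic genes were thus each represented, at low heights.

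Ion channels and receptors, grouped by symbol, supplied further members. Potassium channels gave 19 of 93 genes, led by Kcnq3 at 7.08 and Kcnj6 at 6.84. Sodium and calcium channels gave 10 of 40, led by Cacng8, a subunit tied to AMPA receptors, at 6.50 and Scn2a, a sodium channel of the axon initial segment, at 4.11. Glutamate receptors gave 8 of 27, with Grik2 at 5.77 and Gria4 at 5.31. GABA receptors gave 7 of 21, with Gabbr2 at 4.55 and Gabrb2 at 2.83, and synaptotagmins, calcium sensors of exocytosis, gave 5 of 17, with Syt5 at 7.89. Each of these shares lay above the 5.23% of all genes. Solute carriers gave 31 of 371 (8.36%), zinc-finger genes of the Zfp series 9 of 394 (2.28%) and protocadherins 3 of 68 (4.41%).

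Glia and retina gave a handful. Oligodendrocyte genes gave 3 of 15: Cldn11, for the tight-junction protein of myelin, at 1.99, Mbp, for myelin basic protein, at 1.70, and Olig2. The Schwann cell list gave Ngfr, the low-affinity neurotrophin receptor, at 1.71, and Mbp again. The astrocyte list gave Aldoc, the brain aldolase, at 3.46, of 14 genes. In the retina list Nrl, the rod photoreceptor factor, was a member at 3.22.

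The muscle lists gave 9 members. In the sarcomere list they were Myh8 at 5.53, Tnnt1, the slow skeletal troponin T, at 1.34 and Tcap, for the Z-disc protein telethonin, at 1.01. Cacna1s, the voltage sensor of excitation-contraction coupling, reached 3.16, and Sypl2, a junctional membrane protein, 1.56. Mymk, the fusion protein myomaker, reached 2.20, Itga7, a laminin receptor, 2.17, and Notch3 1.21. Colq, the collagen tail that anchors acetylcholinesterase at the neuromuscular junction, reached 2.06.

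All 18 myogenic regulators had a replicate 2 promoter peak, and none of them was a member. Myod1 had heights of 1.59 in replicate 1 and 1.09 in replicate 2, and Ryr1, the calcium release channel, 1.46 and 1.03. Actn3, the fast-fibre actinin, had 14.7 and 5.02. Ckm, the muscle creatine kinase, was taller in replicate 2, 3.46 against 2.63. Acta1 and Pax7, skeletal actin and the satellite cell factor, had replicate 2 peaks of 1.22 and 1.19, and in replicate 1 only lower peaks of the longer list, 0.304 and 0.674.

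Lists of other cells held few genes each. Mural cell genes gave 3 members of 15 (Tagln, a smooth muscle actin-binding protein, at 1.67, Notch3 and Vtn) and keratinocyte genes 2 of 15. The lymphocyte, adipocyte and germline lists gave 1 each. Endothelial, fibro-adipogenic and tenocyte, macrophage, erythroid and hepatocyte genes gave 0 members, in lists of 13 to 15 genes with 0 to 5 tall replicate 1 promoters, which is near the 5.23% of all genes. Housekeeping and circadian clock genes gave 0 of 15 each, cytoplasmic ribosomal proteins 0 of 80 and proteasome subunits 0 of 40. Nuclear-encoded oxidative phosphorylation subunits gave 1 of 88, Atp5d, while 80 of them had a replicate 2 promoter peak. In the cardiac list Mybpc3, for cardiac myosin-binding protein C, reached 7.87, in a peak centred 1097 bp inside the gene. Pecam1 and Ptprc, of endothelium and leukocytes, had only replicate 1 peaks of the longer list, 0.483 and 0.173.

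Members and shared promoters differed in base composition. In a 1 kb window around the TSS, the ratio of observed to expected CpG had a median of 0.491 at members, 0.751 at shared promoters and 0.587 at all protein-coding genes. CpG-rich promoters, with a ratio of 0.6 or more and a GC content of 50% or more, made up 35.8% of members (Wilson 95% interval 33.1 to 38.7) and 77.3% of shared promoters. CpG-poor promoters, with a ratio under 0.4, made up 39.3% (36.5 to 42.2) and 6.63%. Their shares of all protein-coding genes were 47.5% and 37.6%, so members were close to all genes in their CpG-poor share and below them in their CpG-rich share.

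Height moved with base composition, so the 2 were set side by side. At heights of 1 to 1.5, 47.3% of members and 23.6% of shared promoters were CpG-poor. At 5 to 10 the values were 30.0% and 4.82%, and at 10 or more 24.2% and 1.34%. The CpG-rich share rose with height in both sets, from 29.8% to 48.5% at members and from 43.6% to 91.6% at shared promoters. In each of the 6 height classes members were more often CpG-poor than shared promoters.

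**Figure D4:**
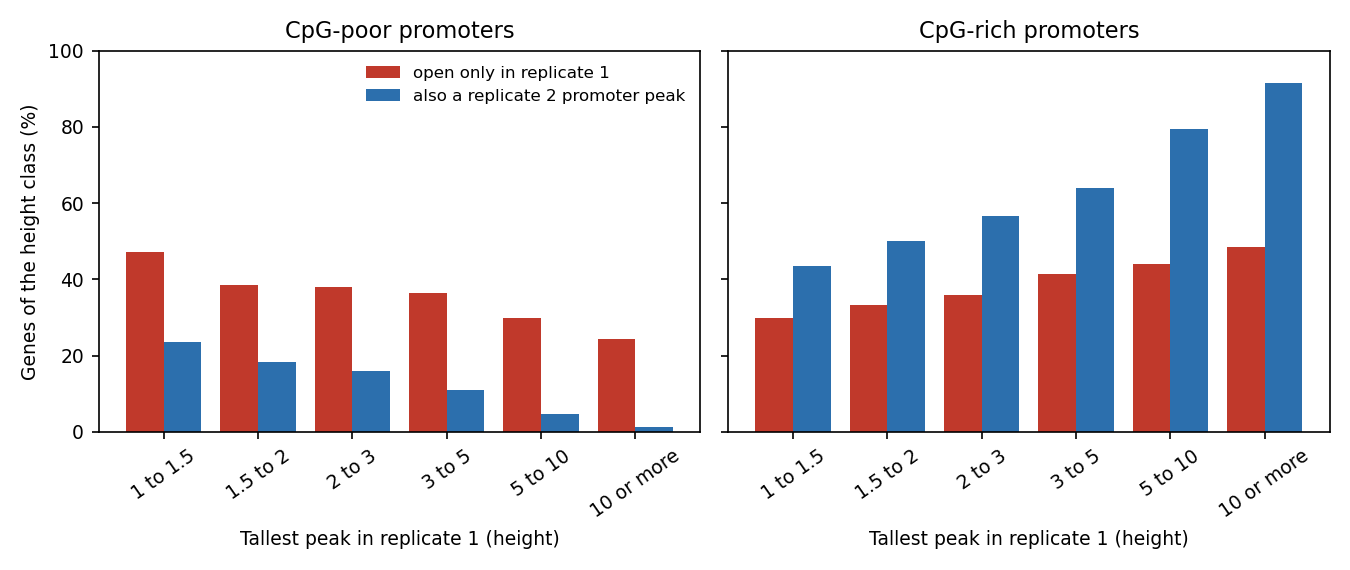
Share of CpG-poor (left) and CpG-rich (right) promoters, in percent, by the height of the tallest replicate 1 peak, for genes open only in replicate 1 and for shared genes. CpG-poor shares of members run from 47.3% to 24.2% and lie above those of shared promoters, 23.6% to 1.34%, in each class.

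Members of the neural lists were found in each class. Neurod1, Elavl3, Zic1, Zic2, Nefl and Kif1a had CpG-rich promoters. Neurod2, Zic4 and Tubb3 were intermediate, and Sv2a was CpG-poor. Of genes with a tall replicate 1 promoter peak, 4.20% of the CpG-rich, 12.7% of the intermediate and 35.5% of the CpG-poor were members.

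Position relative to the TSS was looser at members. The centre of the tallest peak lay within 200 bp of the nearest TSS at 59.7% of members (56.9 to 62.5) and at 83.3% of shared genes (82.7 to 84.0). It lay upstream at 58.5% (55.6 to 61.3) and 73.8% (73.1 to 74.6). An intron held the centre at 24.2% of members and 15.6% of shared genes, an exon at 40.4% and 36.4%, and sequence outside genes at 35.4% and 48.0%. Peak width had a median of 220 bp in both sets. A long noncoding RNA started within 1 kb of the tallest peak at 7.32% of members and 11.9% of shared genes.

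Most members rested on a single peak. There were 733 genes with 1 member peak, 243 with 2, 106 with 3 and 65 with 4 or more. Pax6 had the most, 15. Nrn1, for the neurite growth protein neuritin, had 8, with a tallest of 11.4. A footprint of replicate 1 lay in a member peak at 1142 genes (99.6%), with a median of 5 per gene and 6924 over all member peaks. Pax6 held 41 and Nrn1 36; Jph4, a neuronal junctophilin, and Dnajc6, a clathrin-uncoating cofactor, held 31 each. Atp2b2, a plasma membrane calcium pump, held 29. At heights of 1 to 1.5 the tallest peak held a mean of 3.48 footprints at members and 4.16 at shared promoters, and at 10 or more 5.33 and 5.05.

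Distal sites beside the members differed between the libraries. In replicate 1, 97.4% of members had a distal peak, with a mean of 7.91 per gene, against 94.7% and 6.06 at shared genes. Taking only the 26804 tallest replicate 1 peaks, 67.1% of members (mean 1.89) and 54.4% of shared genes (mean 1.28) had one. In replicate 2, which the rule left unused at distal sites, the shares were 48.6% (45.7 to 51.5; mean 0.973) and 48.2% (mean 1.02). All protein-coding genes had 84.0%, 44.3% and 40.1% in the 3 lists. At equal numbers of peaks members thus had more distal peaks than shared genes in replicate 1 and about as many in replicate 2.

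**Figure D5:**
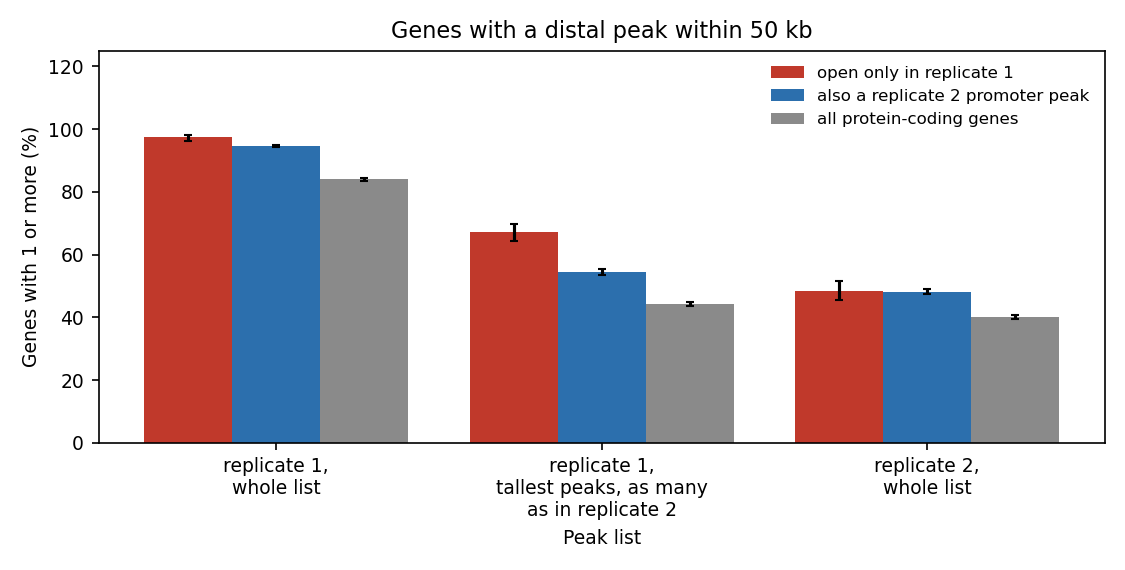
Share of genes with 1 or more distal peaks within 50 kb, in percent with Wilson 95% intervals, in the whole replicate 1 list, in its 26804 tallest peaks and in replicate 2. Members stand at 97.4%, 67.1% and 48.6%, and shared genes at 94.7%, 54.4% and 48.2%.

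The 47 neural list members carried 427 distal peaks in replicate 1 and 28 in replicate 2. At equal peak numbers they carried 94 in replicate 1, with 1 or more at 31 genes, against 28 at 18 genes in replicate 2. The 9 muscle list members had 88 in replicate 1, 24 at equal peak numbers and 7 in replicate 2. Neighbouring genes can count the same distal peak. The lower counts in replicate 2 were thus found at muscle members as well as at neural ones.

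Single loci stood out for their distal peaks. Dscaml1, a cell adhesion molecule of neurons, had 48 in replicate 1 and 6 in replicate 2, and Cep295nl had 48 and 2. Apba2 had 44 and 1, Gabbr2, a GABA-B receptor subunit, 43 and 5, and Nfasc, for neurofascin of the axon initial segment and node, 37 and 3. Rbfox1, a neuronal splicing factor, had 36 and 2, and Megf11, a receptor of retinal mosaic spacing, 36 and 0. Uncx, a homeobox factor, had 33 and 2, and Ppp2r2c, a phosphatase subunit of brain, 33 and 1. Each of these loci had 6 or fewer in replicate 2, and the median member had 7 in replicate 1.

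Motifs were counted in the central 150 bp of the 1809 member peaks, of shared peaks and of all 22348 promoter peaks of height 1 or more, on both strands. The ETS motif CCGGAAG was in 2.21% of member peaks, 9.52% of shared peaks and 8.91% of all. The YY1 motif AAGATGGCG was in 0.166%, 1.47% and 1.36%, and the GC box GGGCGG in 36.1%, 49.0% and 48.0%. The E-box CAGATG, a form that neural helix-loop-helix factors bind, was in 13.0% (Wilson 95% interval 11.6 to 14.7), 7.37% and 7.83%. The form CAGCTG, bound among others by myogenic factors, was in 14.8%, 10.3% and 10.7%. The RFX motif GTTGCCA was in 4.31%, 2.55% and 2.70%. The MEF2 motif was in 1.44% of member peaks and 1.07% of all.

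Height and CpG class moved with these shares. At heights of 1 to 2 the ETS motif was in 2.20% of member and 2.95% of shared peaks, whose intervals overlap (1.47 to 3.28 and 2.55 to 3.42). At 5 or more it was in 1.88% (3 of 160) and 14.9%. CAGATG was in 13.3% and 10.8% at heights of 1 to 2, in 12.4% and 8.07% at 2 to 5, and in 13.8% and 4.63% at 5 or more. At heights of 1 to 2 the member interval (11.4 to 15.5) overlaps the shared one (9.99 to 11.6). In CpG-poor promoters it was in 21% of member and 15.7% of shared peaks, in intermediate ones in 8.92% (6.60 to 12.0) and 8.36% (7.44 to 9.39), and in CpG-rich ones in 8.49% and 6.31%. The member share of CAGATG was therefore nearly level over height, while the shared one fell. The RFX motif was in 6.39% of member and 4.07% of shared peaks in CpG-poor promoters. In intermediate ones the shares were 4.81% and 3.47%, in CpG-rich ones 2.19% and 2.21%, with overlapping intervals in each class. CAGCTG was in 17.6% and 16.8% in CpG-poor, 15.1% and 11.8% in intermediate and 12.1% and 9.37% in CpG-rich promoters. Its shares were 14.2% and 13.4% at heights of 1 to 2, and 14.4% and 7.35% at 5 or more.

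Members were spread over the genome. They made up 3.81% of protein-coding genes on chromosome 5, the lowest share of an autosome, and 7.77% on chromosome 15, the highest. Chromosome X held 42, or 4.43% of its genes, near the 5.23% of all genes. The nearest gene on either side along the chromosome was also a member for 243 members (21.2%), and for 9.38% of non-members, and 46 members shared their tallest peak with another member. Median gene length was 17.2 kb at members, 26 kb at shared genes and 17.4 kb at all protein-coding genes, so members were close to all genes.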

How the data were processed

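DNase-seq was measured in 2 libraries of gastrocnemius. The authors deposited, for each, footprints, intervals and 2 sets of peaks on mm10, per the labels. For the aligner and the callers, names and thresholds were not given in the sources used here. Deposited peak heights are a signal, normalized to read depth per the labels. The deposited intervals of replicate 2 (9142184) give a p-value as an FDR of at most 0.0499. The deposited footprint score was 0.01 throughout and was not used to rank. Total read counts were not used here, and the peak number limits what was called.

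Members were found with the rule given in the report, using GENCODE M21 TSSs. Members and gene lists were chosen with earlier results of these data known. Of 565 entries in 34 symbol lists, 563 were found, and 15 families were taken by symbol pattern. Named genes were the 15 tallest members, up to 4 per list by height, the 10 with most distal peaks, the 10 with most footprints, genes just inside and outside the minimum, and a set of muscle, neuron, glial, endothelial and immune markers whatever their values. Other genes were named after their values were seen: Zic5 as a pair member, members of height above 7, remaining list members, and the non-members of the regional lists. Where genes shared a peak, its sequence was given for the gene with the nearer TSS. Sequences came from the RefSeq GRCm38 genome, whose promoters matched RefSeq's promoter table in 658 of 658 cases. Motifs were 20 consensus strings. Shares carry Wilson 95% intervals, which cover counting error only, and genes are not replicates. No test was made. Some genes are not reported here. The overlap code, tested on simulated data, differed from bedtools in 0 of 2000 overlaps. Alternatives were the other replicate 1 peak list, height minimums of 0.5 and 2, a promoter distance of 500 bp, no interval condition, equal peak numbers and nearest gene only. Scripts ran under Python 3.11.15 with pyfaidx 0.9.0.4, scipy 1.17.1, pandas 2.3.3, numpy 2.4.6 and matplotlib 3.10.9.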

Additional observations from a re-analysis of the deposited data

How the results depend on the processing

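Of 35 values recomputed under alternatives, 23 moved by less than their interval, or for the number of members by less than 1.5 times, and 12 moved further. With the longer replicate 1 list, 99.2% of members had a distal peak, against 97.4%. With a height minimum of 0.5, 98.2% had a footprint, against 99.6%, and 95.7% a distal peak. With a minimum of 2 there were 598 members in place of 1147, 40.1% were CpG-rich, against 35.8%, and 100% had a footprint. With a promoter distance of 500 bp, 41.1% were CpG-rich. With replicate 1 limited to its tallest peaks, as many as in replicate 2, there were 407 members, of which 41.5% were CpG-rich, 100% had a footprint, 75.4% a distal peak and 5.65% were in a neural list, against 4.10%. Fewer peaks entered that setting by construction, and a minimum of 2 keeps only the 598 members of that height. All members of that height had a footprint in their tallest peak, so the 100% followed. The cause of the other moves was not tested. Giving each peak to its nearest gene only was chosen after seeing the data and left 1123 members. Leaving out either replicate gives no value, because the rule needs both libraries. No paired analysis was possible because there is 1 group. The smaller replicate 2 list limits what could be called there: a member is a promoter without a called replicate 2 peak, not one shown to be closed.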

Other observations

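Members outside the neural and muscle lists included some genes of an endocrine pancreas list. In the endocrine pancreas list 4 of 14 genes were members, or 28.6% against 5.23% of all genes. They were Pcsk2 at 6.00 and Pcsk1 at 1.54, the prohormone convertases, Nkx6-1 at 1.41 and Nkx2-2 at 1.13. These genes are also used in neurons. Another 8 genes of this list had no promoter peak in the shorter replicate 1 list or either replicate 2 list. Among them were Ins1, Ins2 and Gcg. The remaining 2 had a replicate 2 promoter peak. Egr3, an immediate-early factor that muscle spindles need, was the member of the immediate-early list, at 3.97. That is 1 of 14 genes (7.14%), near the 5.23% of all genes, and the other 13 had a replicate 2 promoter peak. Olfactory receptor genes gave 10 members of 1134 (0.882%), below the 5.23% of all genes. These 10 were all the genes of the family with a replicate 1 promoter peak of height 1 or more. Their median was 1.40, and the tallest, Olfr1121, was at 4.71. Among Hox genes, 3 of 39 were members (7.69%, near the 5.23% of all genes), among them Hoxb5 at 1.27 and Hoxa4 at 1.24. A replicate 2 promoter peak stood at 17 of the 39, and 14 of these had no promoter peak in the shorter replicate 1 list.

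Hsf1, the heat shock factor used in most cell types, was a member at 11.1, with a CpG-rich promoter and no replicate 2 interval within 1 kb, and had 14 distal peaks in replicate 1 and 9 in replicate 2. It was named after its value was seen.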
